A study of Macaca mulatta with 33 samples.

Results

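Potassium, calcium, sodium, chloride and transient receptor potential channels were followed in whole rhesus macaque corpora lutea, the progesterone-secreting bodies that form from the ovulated follicle. Members were all genes whose probe sets carry a single symbol beginning with KCN, CACN, SCN and a digit, CLCN, CLIC, TRPC, TRPM or TRPV. The arrays hold 199 probe sets for 126 such genes. A gene was kept if at least 1 of its probe sets exceeded a log2 value of 6.2 in 4 or more arrays. This kept 60 genes (92 probe sets) out of 10489 named genes that passed the same filter, and 66 channel genes, among them all 5 TRPC genes, were left out. Just inside the limit lay CACNA1I, KCNA3 and KCNK13, with 6.21, 6.23 and 6.26 as the highest value reached by 4 arrays. Just outside it lay TRPM6 at 6.17, KCNAB1 at 6.12, and KCNJ6 and KCNJ1, both at 6.04.

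Ion channels are membrane proteins that let selected ions cross down their electrochemical gradient. Potassium channels hold the membrane potential near its resting value, voltage-gated calcium channels open on depolarisation and admit calcium as a signal, and auxiliary subunits set how many pore subunits reach the membrane and how they open. In cultured human luteinised granulosa cells, large-conductance calcium-activated potassium channels have been recorded and linked to progesterone output. Channels of the muscle cells and pericytes of luteal vessels are part of the same tissue RNA.

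The study simulated early pregnancy in adult cycling females by giving rising doses of human chorionic gonadotrophin (hCG), the hormone by which the embryo rescues the corpus luteum, from day 9 of the luteal phase. Corpora lutea were collected on day 15, after 6 days of hCG, from females given hCG with trilostane and the synthetic progestin R5020 (4 arrays), hCG with trilostane (4 arrays) or hCG alone (5 arrays). Others were collected on day 10, after 1 day of hCG, under the same 3 treatments (4 arrays each), and from untreated females (8 arrays). Trilostane inhibits 3-beta-hydroxysteroid dehydrogenase and so blocks progesterone synthesis, and R5020 replaces the progestin action alone. The day 15 groups have no untreated day 15 counterpart here, so that a change against untreated day 10 tissue also spans 5 luteal days. Values were set-adjusted log2 levels, described under processing.

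Array medians lay between 6.13 and 6.32. The array names carry a set number from 1 to 3, and the 3 arrays of set 3 are 1 of each day 15 group. Replicates 3 and 5 of day 15 hCG alone were nearly identical (SD of their differences 0.201, against a median of 0.476 over all 528 array pairs) and were averaged into 1 sample, leaving 4 samples in that group. On day 15, the replicate numbered 4 under hCG, trilostane and R5020 and the one numbered 4 under hCG and trilostane were as close (SD 0.192) although their labels place them in different groups. They stayed in the main results, and values without set 3, which removes both, are given with part of the day 15 results of the trilostane arms. Levels, overlaps, the sign count over treatments, marker lists and second probe sets come without such values. So does the TRPM3 change between the days with hCG and trilostane. Markers of steroidogenic luteal cells were high in every array: STAR, which brings cholesterol into mitochondria, read 14.41 to 14.82, and CYP19A1, the aromatase that makes oestrogen, read 10.96 to 14.21.

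Across the 7 groups, 11 of the 60 channel genes (18.3%) differed by limma's F test at a Benjamini-Hochberg adjusted p under 0.05, against 17.9% of all 10489 genes, so that channel genes were called at about the rate of the tissue as a whole. The called genes were TRPM3, the voltage-gated potassium channel genes KCNQ1 and KCNG3, the inward rectifier KCNJ8, the background potassium channels KCNK1 and KCNK3, the potassium channel auxiliary subunits KCNMB4 and KCNAB2, the calcium channel auxiliary subunits CACNB2 and CACNA2D1, and the chloride-proton exchanger CLCN5. Without set 3 the other 10 passed, KCNAB2 did not (adjusted p = 0.0653) and KCNMA1 did (adjusted p = 0.0222). By limma 0 of the 4 calcium channel pore subunits, the 3 calcium-activated potassium channels, the 3 sodium channel genes and the 4 CLIC genes passed, with 0, 2, 0 and 1 of them at an unadjusted p under 0.05. Over all 60 genes 20 had an unadjusted p under 0.05 (33.3%, against 33.5% of all genes). In whole tissue, fewer cells of a type and less RNA per cell cannot be told apart, for this and every later result.

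**Figure D1:**
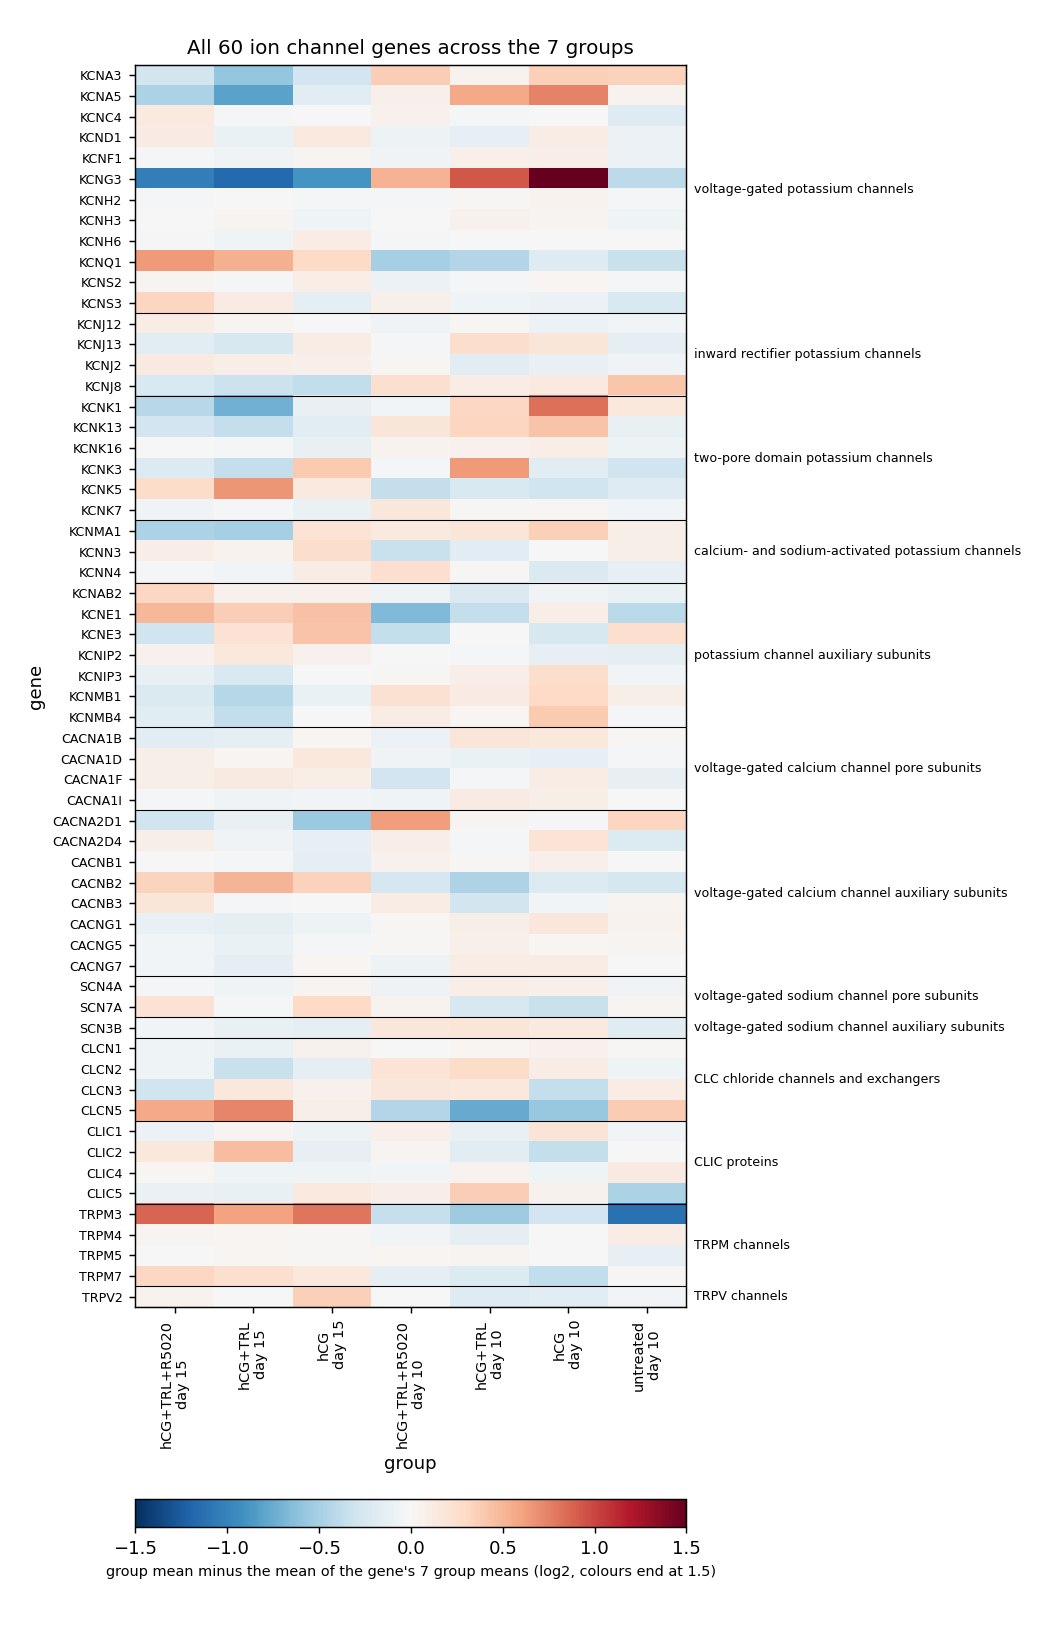
Heat map of the 60 channel genes, in rows by family, over the 7 groups in columns with the day 15 groups left and untreated day 10 tissue at the right. Colour gives each group mean minus the mean of that gene's 7 group means on the log2 scale, and the colours end at 1.5. Most rows are pale, while TRPM3 and KCNQ1 are high in all 3 day 15 columns and KCNG3 is high in the hCG-treated day 10 columns.

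TRPM3 encodes a calcium-permeable cation channel that is opened by heat and by the steroid pregnenolone sulphate. On day 15 its log2 levels were 8.89, 8.79, 8.41 and 8.60 with hCG, trilostane and R5020, 7.85, 9.07, 8.04 and 8.64 with hCG and trilostane, and 8.32, 9.26, 8.26 and 8.56 with hCG alone. Day 10 levels were 7.65, 7.20, 7.88 and 7.06 with hCG, trilostane and R5020, 7.51, 7.11, 7.27 and 7.18 with hCG and trilostane, and 7.09, 7.65, 7.47 and 7.81 with hCG alone. In untreated tissue the lowest of 8 values was 6.47, the median 6.61 and the highest 6.91. All hCG-treated samples lay above all untreated ones, and within each treatment all day 15 samples lay above all day 10 samples. With hCG alone TRPM3 was 3.81-fold higher on day 15 than in untreated tissue (log2 change 1.93 ± 0.22 SE, limma adjusted p = 2e-05) and 1.79-fold higher on day 10 (0.84 ± 0.23, adjusted p = 0.0334). These comparisons share the untreated samples. The day 10 call was lost without any 1 of untreated replicates 1, 2 and 4 and hCG replicates 2, 3 and 4 (adjusted p up to 0.0899), with the change still positive. A second TRPM3 probe set, with an untreated mean of 5.35 that lies under 6.2, also passed on day 15 (adjusted p = 0.000117) and not on day 10 (adjusted p = 0.0833).

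The other TRPM genes kept, the cation channels TRPM4 and TRPM5 and the magnesium-permeable channel kinase TRPM7, did not pass the F test. Their 7 group means spanned 0.25, 0.16 and 0.68 log2 units, against 2.00 for TRPM3. TRPV2, the single TRPV gene kept, spanned 0.55.

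**Figure D2:**
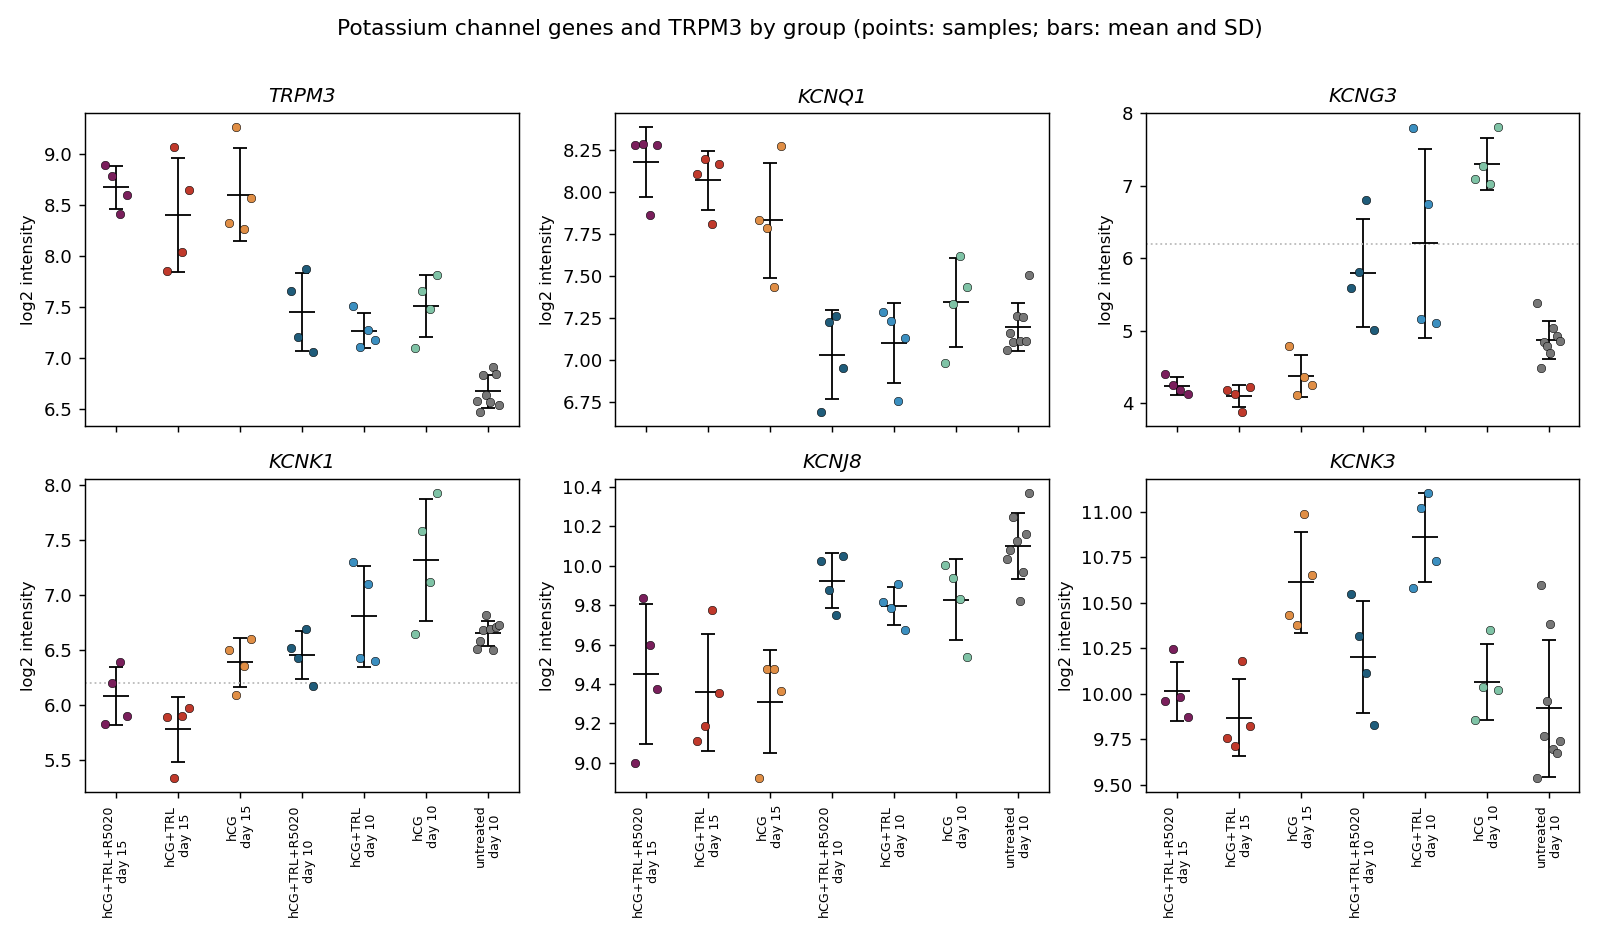
Set-adjusted log2 levels of TRPM3, KCNQ1, KCNG3, KCNK1, KCNJ8 and KCNK3 in every sample, with bars at the group mean and SD, day 15 groups left and untreated day 10 tissue at the right; the dotted line marks the filter value of 6.2 where it falls in range. Within each treatment, day 15 samples sit above day 10 samples for TRPM3 and, but for 1 sample given hCG alone, for KCNQ1, while KCNG3 lies under 5 in all 12 day 15 samples.

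Among voltage-gated potassium channels, KCNQ1 forms the pore of a slow repolarising current in heart and of potassium recycling channels in epithelia, in partnership with KCNE subunits. Its day 15 levels were 8.28, 8.28, 7.86 and 8.28 with hCG, trilostane and R5020, 8.10, 8.20, 7.81 and 8.16 with hCG and trilostane, and 7.83, 7.78, 7.43 and 8.27 with hCG alone. On day 10 they were 6.69, 7.22, 7.26 and 6.96 with hCG, trilostane and R5020, 7.29, 7.23, 6.76 and 7.13 with hCG and trilostane, and 6.99, 7.33, 7.62 and 7.43 with hCG alone. The lowest untreated value was 7.06, the median 7.14 and the highest 7.50. In both trilostane arms every day 15 sample exceeded every day 10 sample, while with hCG alone the lowest day 15 sample fell among the day 10 samples. KCNQ1 was 1.55-fold higher with hCG on day 15 than in untreated tissue (0.63 ± 0.16, adjusted p = 0.0155), and the groups overlapped. That call was lost without untreated replicate 1 or day 15 hCG replicate 4 (adjusted p up to 0.0951) and without the array set term (adjusted p = 0.109). On day 10, hCG alone did not change KCNQ1 past the threshold. KCNE1, one of the KCNQ1 partners, averaged 6.44 ± 0.55, 6.32 ± 0.12 and 6.39 ± 1.14 (SD) in the day 15 groups with hCG, trilostane and R5020, with hCG and trilostane, and with hCG alone, against 5.54 ± 0.47 in untreated tissue, and did not pass the F test. KCNE1 exceeded 6.2 in 10 arrays only. On day 15 with hCG alone, replicate 4 read 8.08 and the others 5.64 to 6.00. On day 10 with hCG alone KCNE1 read 5.35 to 6.83. KCNE3, the other KCNE gene kept, read 7.50 to 7.95, 7.97 to 9.01 and 8.42 to 8.61 in these day 15 groups, in the same order. Its untreated samples read 7.80 to 8.79, and it did not pass the F test either.

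KCNG3 encodes a silent voltage-gated subunit, which makes no channel by itself and alters KCNB channels when it joins them. On day 15 it read 4.41, 4.25, 4.18 and 4.12 with hCG, trilostane and R5020, 4.18, 4.13, 3.88 and 4.23 with hCG and trilostane, and 4.79, 4.11, 4.37 and 4.26 with hCG alone. Day 10 values were 5.58, 5.81, 6.80 and 5.01 with hCG, trilostane and R5020, 7.80, 5.17, 6.75 and 5.11 with hCG and trilostane, and 7.10, 7.28, 7.02 and 7.81 with hCG alone. In untreated tissue the lowest value was 4.49, the median 4.85 and the highest 5.39. The 4 day 10 samples given hCG alone stood above every untreated and every day 15 sample, and the other day 10 treatments spread widely. KCNG3 exceeded 6.2 in 7 arrays only, all of them day 10 hCG-treated: 4 with hCG alone, 2 with added trilostane and 1 with trilostane and R5020. It therefore passed the filter only through the groups where it is high, and its place in the counts of calls supports nothing by itself. After 1 day of hCG it was higher than in untreated tissue (log2 change 2.42 ± 0.39, adjusted p = 0.000663), which is at least 2.14-fold when the untreated mean is placed at 6.2. After 6 days it was lower than after 1 day (fell by 2.92 ± 0.40, adjusted p = 4.84e-05), also at least 2.14-fold. Both calls held under every alternative and with any 1 sample left out. KCNA5, a delayed rectifier of vascular muscle, had the widest group means among members that did not pass (7.12 with hCG and trilostane on day 15 to 8.67 with hCG alone on day 10), with SDs of up to 1.35.

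KCNJ8 encodes the Kir6.1 pore of ATP-sensitive potassium channels, found in vascular muscle and pericytes. Day 15 levels were 9.00, 9.84, 9.60 and 9.38 with hCG, trilostane and R5020, 9.11, 9.19, 9.78 and 9.35 with hCG and trilostane, and 8.92, 9.47, 9.48 and 9.37 with hCG alone. On day 10 they were 10.02, 9.88, 9.75 and 10.05 with hCG, trilostane and R5020, 9.81, 9.79, 9.91 and 9.68 with hCG and trilostane, and 10.00, 9.94, 9.83 and 9.54 with hCG alone. Untreated samples had a lowest value of 9.82, the median 10.10 and the highest 10.37. Every day 15 hCG sample lay under every untreated sample. KCNJ8 was 1.73-fold lower on day 15 with hCG than in untreated tissue (log2 change -0.79 ± 0.16, adjusted p = 0.00261), with every alternative and every single sample left out retaining the call. Against day 10 hCG the groups also did not overlap, but the change of -0.52 ± 0.17 had an adjusted p of 0.0577. Within array set that change was -0.53 and passed (adjusted p = 0.0309). Of 12 pericyte and smooth muscle markers 7 were measured, and by limma 0 passed on day 15 against untreated tissue (1 at an unadjusted p under 0.05). Their list score, the mean over genes of each log2 level minus that gene's overall mean, ranged from -0.226 to 0.346 on day 15 with hCG and from -0.159 to 0.339 in untreated tissue. The other inward rectifiers kept, KCNJ2, KCNJ12 and KCNJ13, spanned 0.28, 0.20 and 0.50 log2 units over the groups and did not pass.

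Background potassium channels of the tandem-pore family stay open at rest. KCNK1 (TWIK-1) read 5.82, 6.2, 6.39 and 5.90 with hCG, trilostane and R5020, 5.89, 5.34, 5.90 and 5.97 with hCG and trilostane, and 6.50, 6.09, 6.35 and 6.60 with hCG alone on day 15. Its day 10 levels were 6.52, 6.43, 6.69 and 6.17 with hCG, trilostane and R5020, 7.30, 6.42, 7.10 and 6.40 with hCG and trilostane, and 6.64, 7.58, 7.12 and 7.93 with hCG alone. The lowest untreated value was 6.49, the median 6.69 and the highest 6.82. With hCG alone, day 15 samples lay under day 10 samples without overlap, a 1.91-fold lower level (log2 change -0.93 ± 0.22, adjusted p = 0.0108). The call was lost without day 10 hCG replicate 4 or day 15 hCG replicate 2, within array set and with the replicate block (adjusted p up to 0.0604). A second KCNK1 probe set also passed in the same comparison (adjusted p = 0.00925), with a day 15 mean of 6.10 that lies under 6.2, and it alone passed for day 10 hCG against untreated tissue (1.15, adjusted p = 0.0267).

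KCNK3 encodes TASK-1, an acid-sensitive background channel known from adrenal cortex and pulmonary artery muscle. On day 15 it read 9.96, 10.25, 9.98 and 9.87 with hCG, trilostane and R5020, 9.76, 9.71, 10.18 and 9.82 with hCG and trilostane, and 10.43, 10.38, 10.99 and 10.65 with hCG alone. Day 10 values were 10.55, 10.32, 10.12 and 9.83 with hCG, trilostane and R5020, 10.58, 11.02, 11.10 and 10.73 with hCG and trilostane, and 9.86, 10.03, 10.35 and 10.02 with hCG alone. Untreated tissue had a lowest value of 9.54, the median 9.75 and the highest 10.60. The high groups were day 15 hCG alone and day 10 hCG with trilostane. KCNK3 was 1.62-fold higher with hCG on day 15 than in untreated tissue (0.69 ± 0.19, adjusted p = 0.0321), with overlapping groups. That call was lost under 6 alternatives and without any 1 of untreated replicates 1, 3 and 4, day 15 hCG replicate 4 or the averaged replicates 3 and 5 (adjusted p up to 0.343). Without set 3 the change was 0.59 (adjusted p = 0.0872). Of the other tandem-pore genes, KCNK5 spanned 1.01 log2 units, with its 3 highest means on day 15, and did not pass.

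Large-conductance potassium channels are built from the pore KCNMA1 and beta subunits such as KCNMB1 and KCNMB4. KCNMB4 read 7.06, 7.76, 7.60 and 7.51 with hCG, trilostane and R5020, 7.35, 7.22, 7.31 and 7.22 with hCG and trilostane, and 7.49, 7.76, 7.71 and 7.65 with hCG alone on day 15. Its day 10 levels were 8.03, 7.84, 7.71 and 7.45 with hCG, trilostane and R5020, 7.87, 7.67, 7.72 and 7.43 with hCG and trilostane, and 8.17, 7.93, 8.10 and 7.95 with hCG alone. Among untreated samples the lowest read 7.47, the median 7.58 and the highest 7.90. The lowest mean was that of day 15 hCG with trilostane, at 7.28 ± 0.06, and the highest that of day 10 hCG alone, at 8.04 ± 0.12 (SD, n = 4 each). These groups are the extremes of the 7, differ in day and in trilostane, and share no array set. KCNMB4 passed the F test (adjusted p = 0.0276). Within array set it was lower on day 15 than on day 10 with hCG alone (-0.39, adjusted p = 0.0422). In the main fit it passed no single comparison between groups on this probe set. A second one passed on day 15 against day 10 with hCG and trilostane (adjusted p = 0.0279), but both its group means lay under 6.2, where no change is given. KCNMA1 had all 7 group means under 6.2, between 5.07 and 5.92, so that this filter did not set its level apart from background. KCNAB2, a cytosolic subunit of voltage-gated potassium channels, passed the F test narrowly (adjusted p = 0.0466), with its highest mean of 8.68 ± 0.20 on day 15 with hCG, trilostane and R5020, against 8.26 ± 0.12 in untreated tissue.

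Of 8 calcium channel auxiliary subunits 2 passed the F test. CACNB2, a cytosolic beta subunit that carries pores to the membrane, read 7.83, 7.89, 8.15 and 8.08 with hCG, trilostane and R5020, 8.40, 8.48, 7.58 and 8.20 with hCG and trilostane, and 8.07, 8.57, 7.75 and 7.63 with hCG alone on day 15. Its day 10 levels were 7.53, 7.40, 7.61 and 7.07 with hCG, trilostane and R5020, 7.26, 7.58, 6.49 and 7.44 with hCG and trilostane, and 7.58, 7.21, 7.35 and 7.69 with hCG alone. The lowest untreated value was 7.14, the median 7.38 and the highest 7.71. Its 3 day 15 means were 7.99, 8.16 and 8.01 in the same order, and its 3 day 10 means with hCG were 7.40, 7.19 and 7.46. The F test passed (adjusted p = 0.0144) and no single comparison did on this probe set. A second CACNB2 probe set passed for day 15 against day 10 with hCG alone (1.03, adjusted p = 0.0255) and with trilostane (1.52, adjusted p = 0.0327).

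CACNA2D1 is the extracellular alpha-2-delta subunit to which gabapentin binds. It read 8.15, 7.68, 8.24 and 8.15 with hCG, trilostane and R5020, 8.18, 8.41, 8.36 and 8.03 with hCG and trilostane, and 8.42, 7.33, 8.03 and 7.39 with hCG alone on day 15. Its day 10 levels were 8.89, 9.05, 8.75 and 9.24 with hCG, trilostane and R5020, 7.74, 8.39, 8.57 and 8.87 with hCG and trilostane, and 8.93, 8.31, 7.77 and 8.34 with hCG alone. In untreated tissue the lowest level was 8.36, the median 8.62 and the highest 9.27. Day 15 hCG samples were mostly below untreated ones, with a single sample inside their range. CACNA2D1 was 1.85-fold lower with hCG on day 15 than in untreated tissue (log2 change -0.89 ± 0.24, adjusted p = 0.0279). The call was lost without untreated replicate 1, day 15 hCG replicate 2 or day 15 hCG replicate 4 (adjusted p up to 0.123) and within array set (adjusted p = 0.0819). Of the calcium channel pores, CACNA1B, CACNA1D, CACNA1F and CACNA1I had group means that spanned 0.34, 0.28, 0.43 and 0.18 log2 units.

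**Figure D3:**
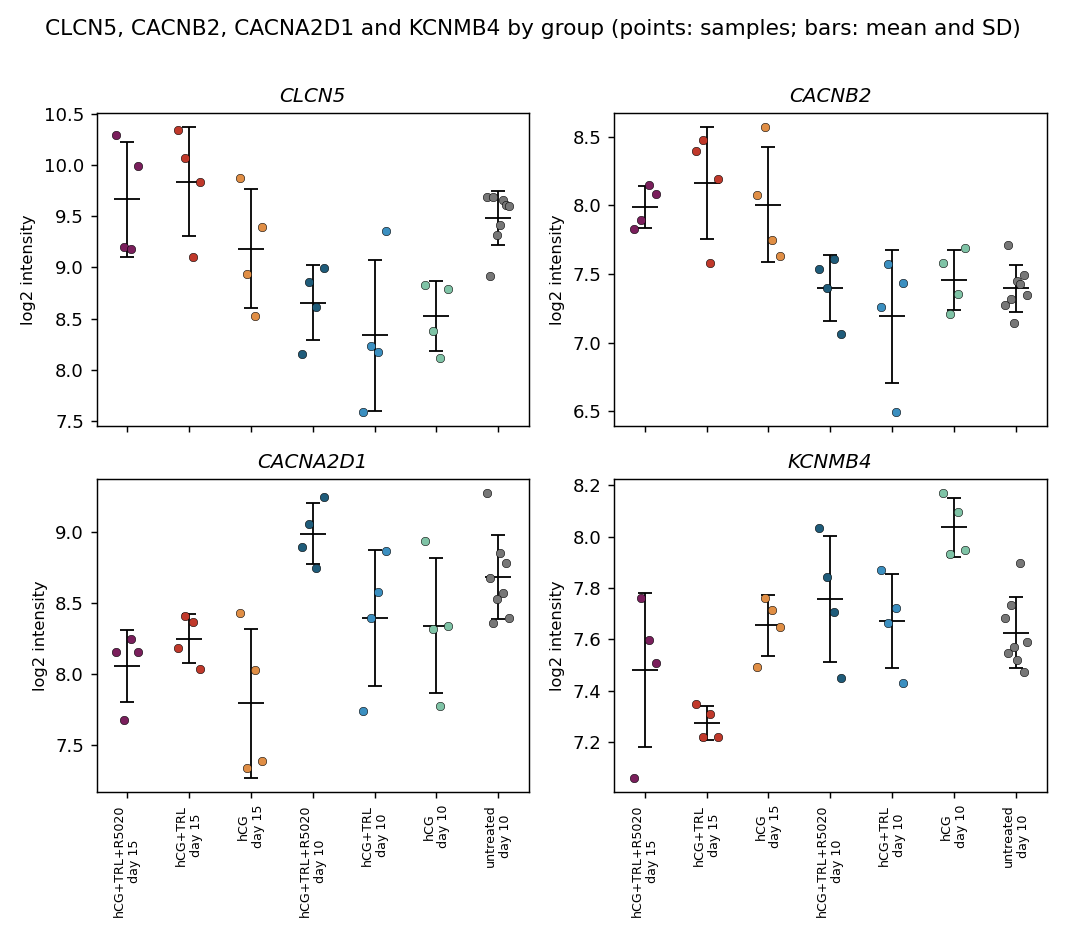
Set-adjusted log2 levels of CLCN5, CACNB2, CACNA2D1 and KCNMB4 in every sample, with bars at the group mean and SD, day 15 groups left and untreated day 10 tissue at the right. CLCN5 means are lower in the hCG-treated day 10 groups than in the flanking groups, and CACNB2 means are between 7.99 and 8.16 on day 15.

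CLCN5 exchanges chloride for protons in the endosomes of the endocytic pathway. It read 10.29, 9.20, 9.18 and 9.99 with hCG, trilostane and R5020, 10.34, 10.07, 9.10 and 9.84 with hCG and trilostane, and 9.87, 8.94, 8.53 and 9.39 with hCG alone on day 15. Its day 10 levels were 8.16, 8.86, 8.61 and 8.99 with hCG, trilostane and R5020, 7.59, 8.23, 8.18 and 9.35 with hCG and trilostane, and 8.82, 8.38, 8.12 and 8.79 with hCG alone. Untreated samples had a lowest value of 8.92, the median 9.60 and the highest 9.69. Day 10 hCG samples lay under all untreated samples, and day 15 hCG samples overlapped both. CLCN5 passed the F test (adjusted p = 0.0189) under every alternative and no single comparison on this probe set, while a second one passed for day 10 hCG against untreated tissue (fell by 0.90, adjusted p = 0.0489). The other genes of the family of CLC chloride channels and exchangers, CLCN1, CLCN2 and CLCN3, spanned 0.17, 0.61 and 0.53 log2 units. The CLIC genes, whose proteins occur in soluble and membrane forms, spanned 0.31 (CLIC1), 0.82 (CLIC2), 0.20 (CLIC4) and 0.85 (CLIC5). Of sodium channels, SCN7A, a sodium-sensing relative of the voltage-gated pores, had means of 9.18 to 9.82, and SCN4A and SCN3B spanned 0.18 and 0.37.

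Set against untreated tissue, hCG alone moved few channel genes past the threshold. After 1 day of hCG alone, KCNG3 and TRPM3 were higher than in untreated tissue, 2 of 60 genes (3.33%) against 5.59% of all genes (4.3% higher and 1.29% lower). Of these, KCNG3 passed the filter only through the groups where it is high. After 6 days, TRPM3, KCNQ1 and KCNK3 were higher and KCNJ8 and CACNA2D1 lower than in untreated day 10 tissue, 5 genes (8.33%) against 6.15% of all genes (4.09% higher and 2.06% lower). The 2 comparisons share their untreated samples. The 5 became 2 without untreated replicate 1 and 2 without day 15 hCG replicate 4. The median channel gene changed by 0.10 on day 10 and 0.05 on day 15, and the median of all genes by 0.06 and 0.04. Under quantile normalization the split over all genes was 404 higher and 202 lower on day 10 and 349 higher and 318 lower on day 15, in place of 451 and 135 and of 429 and 216. The called members and their directions were the same on day 10, and on day 15 all but KCNK3 passed.

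Day 15 and day 10 were then compared within each treatment. KCNG3 was lower on day 15 with hCG alone, TRPM3 was higher with hCG alone and with hCG, trilostane and R5020, and KCNQ1 was higher in both trilostane arms. With hCG alone, 3 of 60 genes passed (5%, against 7.73% of all genes, 3.19% higher and 4.54% lower). TRPM3 was 2.13-fold higher (1.09 ± 0.24, adjusted p = 0.00491), and KCNG3 and KCNK1 were lower, as given above. KCNQ1 gave 0.49 ± 0.17 (adjusted p = 0.0782), and 0.54 without set 3 (adjusted p = 0.0403). Without replicates 3 and 5 of day 15 hCG, 5 genes passed, with KCNJ8 and KCNQ1 added. The same days were compared in the trilostane arms after the data were seen. With hCG, trilostane and R5020, 3 genes passed against 2.97% of all genes (1.33% higher and 1.65% lower): KCNQ1 was 2.21-fold higher (1.14 ± 0.17, adjusted p = 0.000544), TRPM3 was 2.34-fold higher (1.23 ± 0.24, adjusted p = 0.00624), and KCNG3 passed as lower (adjusted p = 0.0389) with both means, 4.24 and 5.80, under 6.2, so that no size is given. Without set 3 the KCNQ1 change was 1.11 (adjusted p = 0.00142), the TRPM3 change 1.25 (adjusted p = 0.0129), and KCNG3 did not pass (adjusted p = 0.0826).

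With hCG and trilostane, 2 genes passed against 2.79% of all genes (1.52% higher and 1.28% lower): KCNQ1 was 1.96-fold higher (0.97 ± 0.23, adjusted p = 0.0226) and KCNG3 passed as lower (adjusted p = 0.0381) with means of 4.11 on day 15 and 6.21 on day 10, which is at least 1.01-fold from 6.2. Over all genes 159 were higher and 134 lower, and under quantile normalization 132 and 198. TRPM3 gave 1.13 ± 0.32 (adjusted p = 0.0582), although its groups did not overlap. The day 10 and day 15 arrays of this treatment share no array set, and without set 3 neither gene passed: KCNQ1 gave 0.84 (adjusted p = 0.0591) and KCNG3 had an adjusted p of 0.0572. A second KCNQ1 probe set passed in neither trilostane arm (0.39, adjusted p = 0.0802 with R5020, and 0.27, adjusted p = 0.392 without it). The count was 1 without day 10 replicate 1 or day 15 replicate 1, 0 without day 10 replicate 3 or day 15 replicate 2, 6 without day 10 replicate 4 and 5 without day 15 replicate 3. The 3 treatments share no arrays, but they share the array set terms, and replicate 4 was nearly identical between the day 15 trilostane arms. Over these treatments the day 15 minus day 10 change had the same sign for 42 of 60 channel genes (70%, 20 higher and 22 lower) and for 61.2% of all genes. No such count without set 3 is given. Markers of macrophages also leaned one way with day: 11 of the 12 measured (of 14 listed) had a change above 0 in each treatment. By limma 0 of them passed, with 3, 10 and 4 at an unadjusted p under 0.05 under hCG with trilostane and R5020, hCG with trilostane, and hCG alone. Of all genes 52.4%, 53.3% and 46.8% had a change above 0 under these treatments, in the same order. An unadjusted p under 0.05 was reached by 17.5%, 18.6% and 23.5% of all genes. With hCG, trilostane and R5020 their list score ranged from 0.075 to 0.656 on day 15 and from -0.429 to 0.141 on day 10. With hCG and trilostane it ranged from 0.366 to 1.18 on day 15 and from -0.769 to 0.26 on day 10. With hCG alone it ranged from -0.025 to 0.48 on day 15 and from -0.58 to -0.177 on day 10. HSD3B2, a steroidogenic marker, was lower on day 15 than on day 10 with hCG, trilostane and R5020 (-2.08, adjusted p = 0.000423), with hCG and trilostane (-2.79, adjusted p = 0.000383) and with hCG alone (-1.45, adjusted p = 0.00296). Of the 6 steroidogenic markers measured (of 10 listed), 4 had a change above 0 in each treatment, and their list score ranged from -0.251 to 0.083 on day 15 and from -0.192 to 0.384 on day 10 with hCG, trilostane and R5020, and from -0.248 to -0.135 on day 15 and from -0.06 to 0.244 on day 10 with hCG and trilostane. With hCG alone it ranged from -0.199 to 0.314 on day 15 and from -0.032 to 0.161 on day 10. The part of these markers in the channel changes was not tested.

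**Figure D4:**
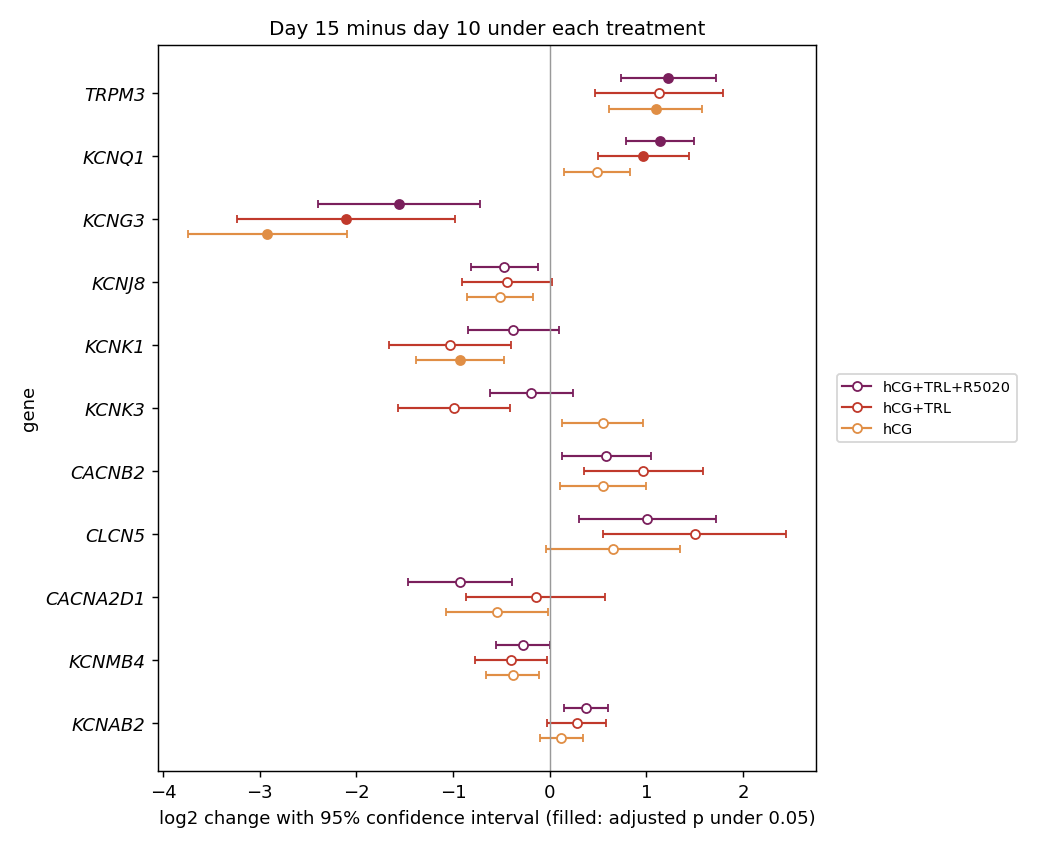
Day 15 minus day 10 log2 change of the 11 genes that passed the F test, with 95% confidence intervals, under hCG with trilostane and R5020, hCG with trilostane, and hCG alone; filled symbols passed at an adjusted p under 0.05. TRPM3 and KCNQ1 are above 0 in all 3 treatments. KCNG3 lies below 0, but its means are under 6.2 in all day 15 groups and in day 10 tissue given hCG, trilostane and R5020.

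Steroid ablation and progestin replacement moved no channel gene past the threshold. Trilostane with hCG against hCG alone gave 0 of 60 genes by limma on day 15 and 0 on day 10, against 0% and 0.00953% of all genes, and 5 genes (8.33%) on each day had an unadjusted p under 0.05, against 6.68% of all genes on day 15 and 17.4% on day 10. R5020 with trilostane and hCG against trilostane and hCG gave 0 on both days, against 0% of all genes each time, with 1 gene (1.67%) on each day at an unadjusted p under 0.05, against 3.99% of all genes on day 15 and 2.91% on day 10. By array set, R5020 tissue of day 10 is all in set 2 and its trilostane counterpart all in set 1, and on day 15 trilostane and hCG alone share only set 3, so that these contrasts and both day differences rest on the array set term. Some array titles also carry the word reanalysis, which did not enter the fit. On day 10 every array with hCG alone has this word and no array with hCG and trilostane does. These arrays are all in set 1, so the set term cannot remove a shift that goes with the word. In this contrast 28.5% of all genes had a change above 0. On day 15 all hCG alone arrays but replicate 5 have the word, and no trilostane array does. Its part in the trilostane changes was not tested. KCNK3 had the smallest p among channel genes in 3 of the 4 trilostane and R5020 comparisons. Its trilostane change was -0.75 ± 0.26 on day 15 (adjusted p = 0.683) and 0.80 ± 0.20 on day 10 (adjusted p = 0.114), in both cases with groups that did not overlap. Without set 3 the day 15 change was -0.58 (adjusted p = 0.685), and without the array set term it was -0.51 (adjusted p = 0.703). The day 15 trilostane effect minus the day 10 one was -1.54 ± 0.33 (95% confidence interval -2.22 to -0.86, unadjusted p = 8.47e-05, adjusted p = 1), without set 3 it was -1.37 (unadjusted p = 0.000605), and without the array set term -1.31 (unadjusted p = 0.00209). Adding R5020 gave 0.15 ± 0.20 on day 15 (0.18 without set 3) and -0.66 ± 0.28 on day 10 (unadjusted p = 0.0264, adjusted p = 1), the day 10 groups again not overlapping once adjusted for array set. For KCNK3 the fitted set 2 minus set 1 offset was 0.417, and without the array set term the day 10 change was -0.24 (unadjusted p = 0.384). The difference between those R5020 effects was 0.81 ± 0.35 (unadjusted p = 0.0277), against 0.74 without set 3 (unadjusted p = 0.0494) and 0.39 without the array set term (unadjusted p = 0.324).

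The other genes with the smallest p in these steroid comparisons did not pass either. On day 15 trilostane gave 0.59 ± 0.23 for CLIC2 (adjusted p = 0.712), and 0.68 without set 3 (adjusted p = 0.521). KCNMA1, with both means under 6.2, had an adjusted p of 0.687, and of 0.259 without set 3. On day 10 it gave -0.36 ± 0.13 for KCNMB4 (adjusted p = 0.242) and -1.09 ± 0.39 for KCNG3 (adjusted p = 0.246). The KCNG3 value rested on day 10 trilostane samples that spread over an SD of 1.31, and it passed without replicate 1 of that group (adjusted p = 0.0332). With R5020 on day 15, KCNAB2 gave 0.25 ± 0.11 (unadjusted p = 0.0238), the accessory subunit KCNE3 gave -0.51 ± 0.27 and CLIC2 gave -0.30 ± 0.17. Without set 3 these 3 values were 0.23 (unadjusted p = 0.0725), -0.61 and -0.36. On day 10 R5020 gave 0.39 ± 0.23 for the calcium channel beta subunit CACNB3 and 0.59 ± 0.35 for CACNA2D1, which were 0.36 and 0.14 without the array set term. For both day differences 0 genes passed by limma, and 2 channel genes for trilostane (KCNK3 and CLIC1, the CLIC1 difference being 0.42 ± 0.19, and 0.49 without set 3) and 1 for R5020 (KCNK3) had an unadjusted p under 0.05. Next to these came KCNQ1 for trilostane (0.48 ± 0.27, and 0.30 without set 3), and CACNA2D1 (-0.78 ± 0.43, and -0.94 without set 3) and CACNG7 (0.28 ± 0.16, and 0.22 without set 3) for R5020. A p that misses the threshold does not show that a steroid effect was absent.

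**Figure D5:**
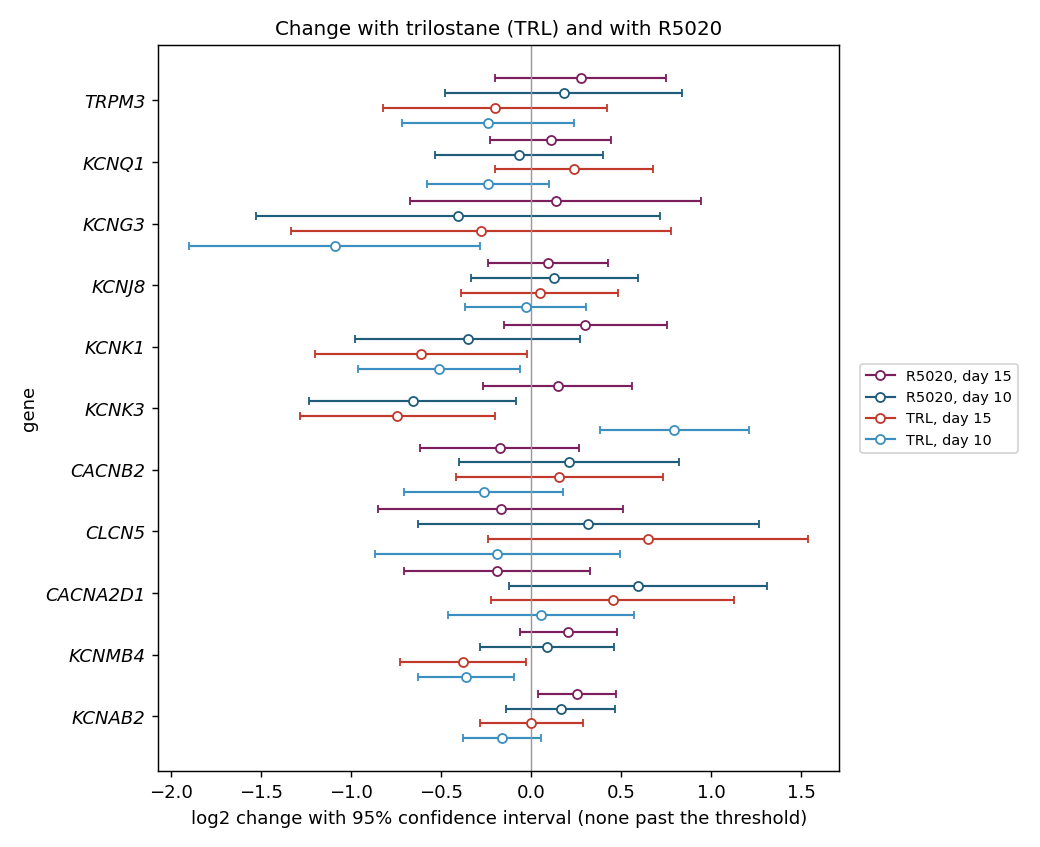
Log2 change of the same 11 genes with R5020 (against hCG with trilostane) and with trilostane (against hCG alone), day 15 and day 10, with 95% confidence intervals. No change passed at an adjusted p under 0.05, and KCNK3 lies on opposite sides of 0 on the 2 days under both agents.

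Genes outside the channel symbols that set membrane potential and calcium were read from 4 lists. Of 22 ion pumps and exchangers 10 were measured, and by limma 0 passed in any comparison (at most 3 at an unadjusted p under 0.05, on day 15 against day 10 with hCG, trilostane and R5020). Of 23 genes of the calcium store and store-operated entry 16 were measured, and the only one to pass between groups was STIM1. That is 1 of 16 on day 10 with hCG against untreated tissue, where 5.59% of all genes passed. It is also 1 of 16 on day 15 against day 10 with hCG alone, where 7.73% of all genes passed. STIM1, the endoplasmic reticulum calcium sensor that opens store-operated channels, was higher after 1 day of hCG alone than in untreated tissue (1.14 ± 0.18, adjusted p = 0.000609) and lower on day 15 than on day 10 (-0.85 ± 0.19, adjusted p = 0.00572). Its day 10 means in the trilostane arms lay nearer to untreated tissue and are given under other observations. Of 39 channel genes under other symbols 21 were measured, and 3 passed between groups. With hCG alone, 2 of the 21 passed on day 10 against untreated tissue, 2 on day 15 against it, and 2 between the days. Of all genes 5.59%, 6.15% and 7.73% passed in these comparisons. TTYH2, a tweety family membrane protein, was higher with hCG on day 15 (1.17 ± 0.22, adjusted p = 0.00152) and day 10 (1.69 ± 0.22, adjusted p = 0.000101). SCNN1A, the alpha subunit of the epithelial sodium channel, was higher on day 15 than in untreated tissue (0.95 ± 0.20, adjusted p = 0.00496) and than on day 10 (0.91 ± 0.22, adjusted p = 0.0102). ANO6, a calcium-activated lipid scramblase and channel, was higher on day 10 than in untreated tissue (0.68 ± 0.12, adjusted p = 0.00114) and lower on day 15 than on day 10 (-0.76 ± 0.12, adjusted p = 0.000273). Of 17 regulators of channels 14 were measured, and 2 passed between groups. In the same comparisons with hCG alone, 1, 2 and 1 of the 14 passed, against the same shares of all genes. RRAD, a small GTPase that inhibits voltage-gated calcium channels through their beta subunits, was lower with hCG on day 15 (-0.74 ± 0.20, adjusted p = 0.0234) and day 10 (-1.17 ± 0.20, adjusted p = 0.00111). SGK1, a kinase that raises the activity of several channels including KCNQ1, was higher on day 15 with hCG than in untreated tissue (0.65 ± 0.16, adjusted p = 0.0164) and than on day 10 (0.69 ± 0.17, adjusted p = 0.0156). With hCG, trilostane and R5020 it was also higher on day 15 than on day 10 (0.87 ± 0.18, adjusted p = 0.00789). There it was 1 of the 14 to pass, against 2.97% of all genes, and no value without set 3 is given for it.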

How the data were processed

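Total RNA of whole corpora lutea was measured on 33 Affymetrix Rhesus Genome arrays. The values deposited by the authors are log2 intensities per probe set (2.6 to 15.12), log2 being read from that range; how they were background-corrected, summarized and normalized is not given in the sources used here. No per-sample column was left unused. Depth has no meaning for arrays, whose number limits the precision.

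Of 52865 probe sets, 99 controls were left out, and 28797 exceeding 6.2 in at least 4 arrays were kept: 17564 with 1 symbol, 240 with several and 10993 with none, by the platform's annotation. Arrays were centred on their medians. Each gene takes its kept probe set of highest mean, and 22 of the 60 channel genes have several. Groups come from the labels, and array set from the array names. All 32 samples (replicates 3 and 5 of day 15 hCG averaged) entered a single limma fit (limma 3.58.1, statmod 1.5.0, R 4.3.3) with group and array set as fixed terms, 23 residual degrees of freedom and eBayes with a mean-variance trend, checked on simulated data. Levels are adjusted to the scale of set 1, and ± is the SE of a change or, where marked, the SD of a mean. The set 3 term rests on the 3 arrays of that set, 1 of them averaged with a set 1 array. Adjusted levels of set 3 samples are thus partly fitted, which can narrow SDs and affect overlaps in the day 15 groups. Tests were an F test over 7 groups, 7 comparisons between groups, 2 differences of effects between days and 2 further day comparisons added after the data were seen, all two-sided, with Benjamini-Hochberg adjustment over the 28797 probe sets and a threshold of 0.05. Between array sets 2 and 1, 6.26% of probe sets and 3 channel genes (KCNIP3, KCNN3 and TRPM4) differed. A fold against a group mean under 6.2 is given as a bound from 6.2, on group means.

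Channel genes and lists were chosen with earlier results of these data known. Named are the 10 genes with the smallest F-test p, the genes passing in each comparison, the 3 smallest p where none passed, and up to 3 passing genes per list and comparison. KCNA5, KCNE1, KCNK5 and SCN7A were named after their values were seen, and so were the KCNE3 levels set beside KCNQ1. The labels do not say whether each sample came from a separate animal, so p-values measure only the spread between these samples, which may be technical. Alternatives covered centring, quantile normalization, the array set term (none, random block, within set), the low-value filter, the near-identical replicates, set 3, averaging of probe sets, a replicate block and leaving out each sample.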

Additional observations from a re-analysis of the deposited data

Results flagged for a closer look

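In 6 of 119 combinations of a gene and a group, over the 17 genes named with values, 1 sample lay far from the rest of its group by Dixon's criterion, and chance gives about 5%. In hCG, trilostane and R5020 tissue on day 15, replicate 2 read 7.68 for CACNA2D1, where the others read 8.15 to 8.24. In the same group replicate 3 read 7.86 for KCNQ1, and the other 3 samples all read 8.28. In hCG and trilostane tissue on day 15, replicate 2 read 5.34 for KCNK1, against 5.89 to 5.97 in the others, and all 4 lie under the filter value. In hCG and trilostane tissue on day 10, replicate 2 read 11.46 for CLIC1, against 11.91 to 12 in the others. In untreated tissue, replicate 9 read 7.50 for KCNQ1, against 7.06 to 7.26, and replicate 7 read 9.17 for CLIC2, against 9.71 to 9.98. Replicate 4 of both day 15 trilostane groups is a set 3 array, whose adjusted level is partly fitted by the set 3 term. The flags in those groups carry that limit.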

How the results depend on the processing

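Besides leaving out each of the 32 samples, 10 alternatives were run. TRPM3 with hCG on day 15 against untreated tissue and against day 10, TRPM3 and KCNQ1 on day 15 against day 10 with trilostane and R5020, KCNJ8 on day 15, both KCNG3 calls of hCG alone, and the F tests of TRPM3, KCNQ1, KCNG3, KCNJ8 and CLCN5 passed under all of them. Of these, KCNG3 passed the filter only through the groups where it is high, so its place here supports nothing by itself. The F-test count of 11 was 7 with the replicate block. The count of 2 for day 10 hCG was 1 without the filter. The count of 5 for day 15 hCG against untreated tissue was 3 without the array set term and 3 within array set, and the count of 3 for day 15 against day 10 with hCG was 5 within array set. The count of 2 for day 15 against day 10 with trilostane was 11 without the set term, 6 with a random block, 1 without the filter, 5 with replicates 3 and 5 apart, 0 without set 3 and 0 with the replicate block. Leaving out 1 sample gave 9 to 12 genes in the F test, 1 to 3 for day 10 hCG, 2 to 5 for day 15 hCG, 2 to 5 for day 15 against day 10 with hCG, 0 to 6 with trilostane and 2 to 3 with trilostane and R5020, 0 to 1 for trilostane on day 10, and 0 to 0 for trilostane on day 15, R5020 on either day and both day differences. Correlations of same-numbered samples, on deviations from group means after the set term, ran from -0.562 to 0.474. The lowest was that of replicate 4 of the day 15 trilostane arms, both in set 3. The set 3 term ties their deviations together, so this check cannot decide whether replicate numbers pair the samples. The replicate block reversed 3 values that had not passed: KCNMA1 with trilostane on day 15 (0.76), CACNA2D1 with R5020 on day 10 (-0.51) and its R5020 day difference (0.32). The untreated samples of set 2 carry replicate numbers that no other sample has, so the block fits each of them exactly. The offset between sets 1 and 2 then rests on the set 3 arrays alone. For comparisons across sets the block therefore cannot separate sample pairing from the loss of that offset. The cause of these reversals was not tested. Of the other values of named genes, 65 kept their direction but lost their call and 1 gained one; in the F test these were KCNK1 with the replicate block (adjusted p = 0.116), KCNK3 without the set term (adjusted p = 0.0761), CACNA2D1 with the replicate block (adjusted p = 0.0758), CACNB2 under 3 alternatives and KCNMB4 as the mean of its probe sets (adjusted p = 0.108), among others. A within-set value could not be had where the groups share no set. Array number, and signal near 6.2 for KCNG3, KCNK1 and KCNMA1, limit precision.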

Other observations

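Of the steroidogenic markers 6 of 10 were measured. STAR was higher with hCG on day 15 than in untreated tissue (0.30, adjusted p = 7e-04). HSD3B2, a 3-beta-hydroxysteroid dehydrogenase, was lower with hCG on day 15 than in untreated tissue (-0.995, adjusted p = 0.0318), and INHBA, an inhibin and activin subunit, was higher on day 15 than on day 10 (1.58, adjusted p = 0.0299). KRT8, a keratin of epithelia, was lower with hCG on day 15 than in untreated tissue (-1.17, adjusted p = 0.00474) and than on day 10 (-1.22, adjusted p = 0.00491). It is 1 of 4 ovarian surface epithelium markers measured (of 9 listed). Of these 4, 3 had a change above 0 against untreated tissue and 1 against day 10. UCHL1, from the list of neurons and Schwann cells, was higher with hCG on day 15 than in untreated tissue (0.81, adjusted p = 0.00847). It read 12.26 to 13.73 over all samples. Of the 5 markers of that list measured (of 12 listed), 2 had a change above 0 in this comparison. Within the trilostane arms STIM1 averaged 8.28 with hCG, trilostane and R5020 and 8.17 with hCG and trilostane on day 15, and 8.44 and 8.56 under the same treatments on day 10, against 8.27 in untreated tissue. With hCG alone on day 10 it lay 1.14 log2 units above untreated tissue. Its trilostane change on day 10 did not pass.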
